A study of Homo sapiens with 8 samples.

Results

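A set of 10 genes that build, coat and break down stored triglyceride was examined: GPAM, AGPAT2, LPIN1, DGAT1, DGAT2, PLIN2, PLIN3, PNPLA2, LIPE and MGLL. They were chosen by name for their roles in the pathway, with earlier results of these data known. They are the rows of the count table that carry these symbols, 10 of its 58870 gene rows. All 10 had enough counts to be tested. The libraries came from Panc 10.05, an established human pancreatic ductal adenocarcinoma line, as 4 libraries of control cells and 4 libraries of cells overexpressing ELAPOR1, a transmembrane protein of endosomes and lysosomes. The labels give neither the way the gene was overexpressed, nor whether the cells were a clone or a pool, nor what the control cells carried. They also do not say that the 4 libraries of a group came from separate cultures, so the p-values measure only the spread between these libraries, which may be technical.

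Triglyceride is assembled at the endoplasmic reticulum. Acyl chains are added stepwise to glycerol 3-phosphate, a phosphatase turns the resulting phosphatidate into diacylglycerol, and a final acyl transfer gives triglyceride, which is packed into droplets coated with perilipins. Lipolysis runs the other way, with a separate lipase for each acyl chain, and the droplet thereby serves cells as a reserve of fatty acids and as a buffer against their excess. Adipocytes, hepatocytes and many epithelial and tumour cells carry such droplets.

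The 4 control libraries held 16558600 to 18128757 counts and the 4 ELAPOR1 libraries 13765509 to 17258166. ELAPOR1 itself, listed under its older symbol KIAA1324, had 1, 1, 4 and 4 counts in the control libraries and 7006, 6422, 5910 and 7368 in the ELAPOR1 libraries, as the labels say. Of 13860 genes tested, 44.7% were called different, 22.6% higher and 22.1% lower with ELAPOR1, and 39.2% had levels in CPM (counts per 1000000 with TMM scaling) that did not overlap between the groups. All 6 epithelial markers were present, with a summed level of 11929 to 13196 CPM in control and 11159 to 11510 CPM in ELAPOR1 libraries, and 5 of the 6 were called. KRT8 and KRT18, which had the highest levels of the 6, were lower, and KRT7, KRT19 and CDH1 were higher. Of 5 adipocyte markers none was tested, ADIPOQ and LEP were at 0 in every library, and the sum reached at most 0.499 CPM in control and 0.519 CPM in ELAPOR1 libraries. Hepatocyte markers summed to 7.67 to 9.48 CPM and 14.6 to 17.4 CPM, with APOA2 and TTR at 0 and SERPINA1 as the 1 of 5 that was tested and called. Acinar markers summed to 0.793 to 1.32 CPM and 0.998 to 1.56 CPM with PRSS1, CPA1, CELA3A and PNLIP at 0, and fibroblast markers to 2.83 to 4.32 CPM and 2.71 to 3.13 CPM with COL1A2, DCN and LUM at 0, and neither list had a called gene. Leukocyte and endothelial markers summed to 1.77 to 2.56 CPM and 0.864 to 1.4998 CPM with CD3E at 0 and VWF as the 1 gene called, and the part of these markers in the results was not tested.

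Of the 10 genes, 5 passed edgeR's quasi-likelihood test at an adjusted p under 0.05, beside 44.7% of all tested genes. DGAT2 and PLIN3 rose with ELAPOR1 (2 of 10, beside 22.6% of all tested genes), and DGAT1, PNPLA2 and MGLL fell (3 of 10, beside 22.1%). These shares of called genes are near those of the transcriptome. The groups did not overlap in these 5 genes and in LPIN1, a larger share than in the transcriptome (6 of 10, beside 39.2%), and that difference was not tested. The median log2 fold change over the 10 genes was 0.05, beside 0.00 over all tested genes, and the median of its size was 0.25, beside 0.18. The 5 called changes ranged from 11.01% to 38.7% in size, and with edgeR's test against a 1.5-fold change in place of no change none of the 10 genes was called. With trends over GC content and transcript length removed, 7 of the 10 were called, the additional ones being AGPAT2 and LPIN1. In bulk RNA, a smaller number of cells that express a gene and less of its RNA per cell cannot be told apart.

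**Figure D1:**
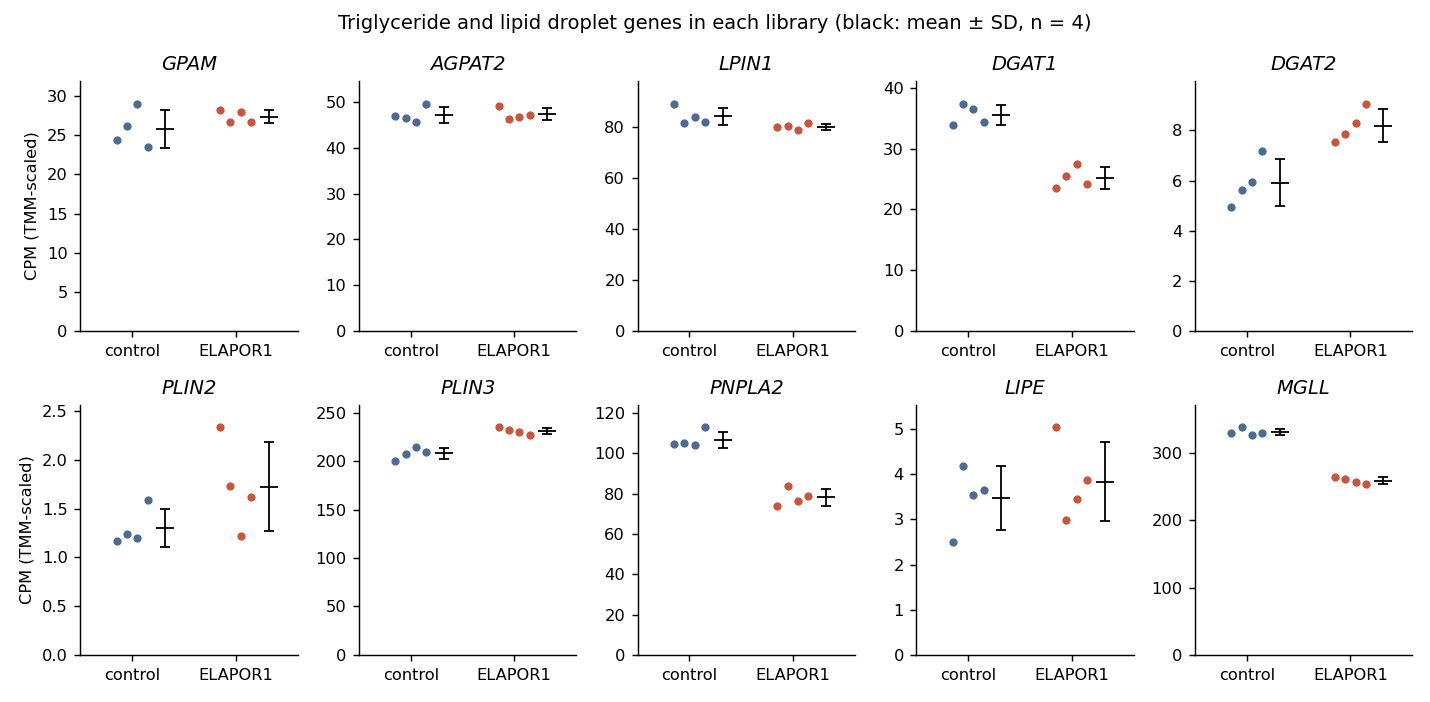
Level of each of the 10 genes in TMM-scaled CPM (linear axes from 0), with 1 point per library for 4 control (blue) and 4 ELAPOR1 (red) libraries and mean ± SD in black. The groups are apart in DGAT1, DGAT2, PLIN3, PNPLA2 and MGLL, and by a narrow margin in LPIN1, where the lowest control library had 81.7 CPM and the highest ELAPOR1 library 81.6 CPM.

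None of the 3 genes of the early steps, GPAM, AGPAT2 and LPIN1, passed the test. GPAM (ENSG00000119927.14, chromosome 10, 112149864 to 112215377 on GRCh38, minus strand) encodes the mitochondrial acyltransferase that adds the first acyl chain to glycerol 3-phosphate. Its level was 24.3, 26.1, 29.01 and 23.5 CPM in control replicates 1 to 4 and 28.2, 26.7, 27.9 and 26.6 CPM in ELAPOR1 replicates 1 to 4. Control replicate 3 was the highest library of all and the groups overlapped. The means were 25.8 ± 2.43 and 27.4 ± 0.807 CPM (SD, n = 4 each), and the log2 fold change of 0.09 had a 95% interval from -0.05 to 0.23 (edgeR, SE 0.0685, adjusted p = 0.319). It was 0.15 without control replicate 3, 0.05 without control replicate 1 or 4 and 0.02 with trends over GC content and transcript length removed, and in none of these was it called.

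AGPAT2 (ENSG00000169692.13, chromosome 9, 136673143 to 136687423, minus strand) encodes the acyltransferase that adds the second chain and makes phosphatidate. Loss of this enzyme in people causes a generalized lipodystrophy. Its level was 46.8, 46.6, 45.7 and 49.6 CPM in the control libraries and 49.2, 46.3, 46.6 and 47.1 CPM in the ELAPOR1 libraries. All 8 values lay in 1 narrow band, with control replicate 4 and ELAPOR1 replicate 1 at its top. The means were 47.2 ± 1.68 and 47.3 ± 1.28 CPM, with a log2 fold change of 0.01 and a 95% interval from -0.10 to 0.11 (edgeR, adjusted p = 0.946). That sign turned with upper-quartile scaling (-0.0032). With trends over GC content and transcript length removed, the value was 0.13 and passed the test (edgeR, adjusted p = 0.0254), and 65.9% of this gene's transcript is G or C.

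LPIN1 (ENSG00000134324.11, chromosome 2, 11677595 to 11827409, plus strand) encodes lipin 1, the phosphatase that converts phosphatidate to diacylglycerol and also acts in the nucleus as a coregulator of transcription. Its level was 89.2, 81.7, 84.0 and 81.9 CPM in the control libraries and 79.9, 80.6, 78.8 and 81.6 CPM in the ELAPOR1 libraries. Every ELAPOR1 library was below every control library, although control replicates 2 and 4 were close to ELAPOR1 replicate 4. The means of 84.2 ± 3.48 and 80.2 ± 1.18 CPM gave a log2 fold change of -0.07 with a 95% interval from -0.15 to 0.01, and it did not pass (edgeR, SE 0.0413, adjusted p = 0.169). Without control replicate 1 it was -0.05. With GC and length trends removed it was -0.13 and passed (edgeR, adjusted p = 0.00305).

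The last step of synthesis differed most in its balance. DGAT1 and DGAT2 encode unrelated enzymes that both join diacylglycerol to an acyl chain to give triglyceride. DGAT1 (ENSG00000185000.12, chromosome 8, 144314584 to 144326910, minus strand) encodes a membrane enzyme of the endoplasmic reticulum that is known to re-esterify fatty acids set free by lipolysis. Its level was 33.8, 37.4, 36.6 and 34.4 CPM in the control libraries and 23.4, 25.5, 27.5 and 24.2 CPM in the ELAPOR1 libraries. The highest ELAPOR1 library was below the lowest control library by more than the SD of either group. DGAT1 fell by 29.3%, from 35.5 ± 1.70 to 25.2 ± 1.78 CPM (log2 fold change -0.50, SE 0.0638, 95% interval -0.63 to -0.37, edgeR adjusted p = 6.4e-08). HSF1 overlaps DGAT1 on the opposite strand, and it was also lower, at 147 and 136 CPM (log2 fold change -0.12, edgeR adjusted p = 0.0221). The expected counts of DGAT1 were not whole in 5 of 8 libraries, so part of its reads was shared out among genes. The use of strand in counting is not given in the sources used here, so reads of DGAT1 and HSF1 cannot be told apart where the genes overlap.

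DGAT2 (ENSG00000062282.15, chromosome 11, 75759512 to 75801535, plus strand) encodes the enzyme that is known to favour newly made fatty acids and to sit at growing droplets. It was a lowly expressed gene, with 89, 95, 99 and 118 counts in the control libraries and 123, 118, 115 and 157 in the ELAPOR1 libraries. In CPM these were 4.93, 5.61, 5.93 and 7.19 against 7.55, 7.85, 8.28 and 9.06. The groups did not overlap, though control replicate 4, the highest of its group, came close to ELAPOR1 replicate 1, the lowest of its group. DGAT2 rose by 38.7%, from 5.92 ± 0.948 to 8.18 ± 0.654 CPM (log2 fold change 0.47, SE 0.127, 95% interval 0.21 to 0.73, edgeR adjusted p = 0.00268).

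The ratio of DGAT1 to DGAT2 counts within a library needs no scaling between libraries. It was 6.85, 6.66, 6.16 and 4.78 in the control libraries and 3.11, 3.25, 3.32 and 2.67 in the ELAPOR1 libraries. The lowest control library was thus above the highest ELAPOR1 library. The log2 ratio averaged 2.60 ± 0.237 over the control libraries and 1.62 ± 0.143 over those with ELAPOR1. The difference of -0.98 is a 1.97-fold lower ratio. DGAT1 counts remained the larger in all 8 libraries. The ratio shows unequal change of the pair and carries no test of its own.

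**Figure D2:**
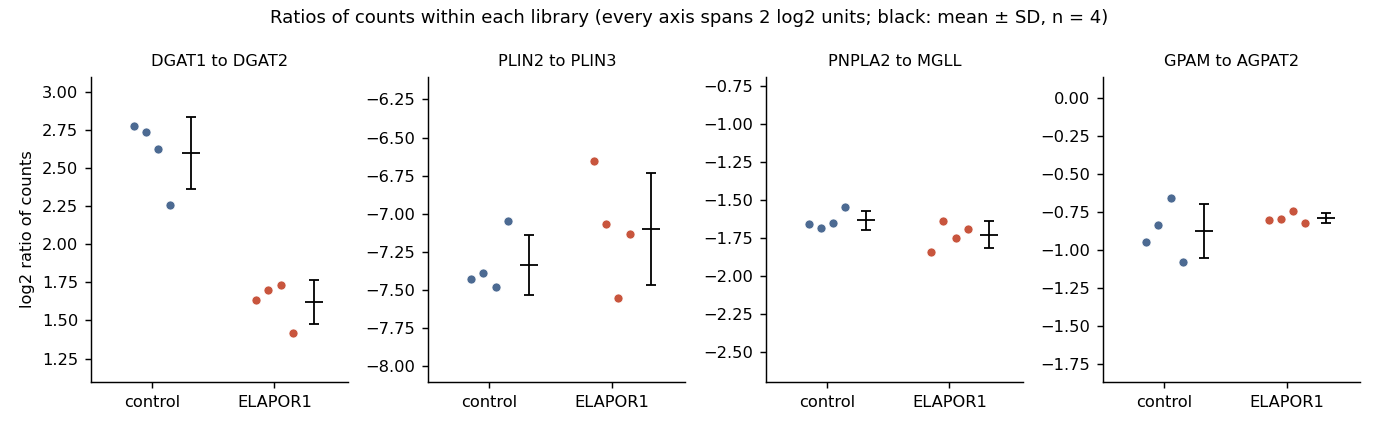
Log2 ratio of counts within each library for 4 pairs of genes, each axis spanning the same range, with 1 point per library (control blue, ELAPOR1 red) and mean ± SD in black (n = 4). Only the ratio of DGAT1 to DGAT2 separates the groups among these 4 pairs, at 2.60 ± 0.237 in control and 1.62 ± 0.143 in ELAPOR1 libraries.

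The perilipins cover the droplet surface and limit the access of lipases to it. PLIN2 (ENSG00000147872.10, chromosome 9, 19108375 to 19149290, minus strand) encodes the coat protein that is found on droplets of most non-adipose cells and is degraded when it is not bound to one. It was the least abundant of the 10 genes, with 21, 21, 20 and 26 counts in the control libraries and 38, 26, 17 and 28 in the ELAPOR1 libraries. The levels were 1.16, 1.24, 1.20 and 1.59 CPM against 2.33, 1.73, 1.22 and 1.62 CPM. ELAPOR1 replicate 1 was the highest of all, ELAPOR1 replicate 3 lay among the control libraries, and the groups overlapped. The log2 fold change of 0.42 between 1.297 ± 0.195 and 1.73 ± 0.459 CPM was not distinguishable from 0 at this depth, with a 95% interval from -0.14 to 0.98 (edgeR, SE 0.274, adjusted p = 0.221). Without ELAPOR1 replicate 1 the value was 0.24 (adjusted p = 0.568).

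PLIN3 (ENSG00000105355.9, chromosome 19, 4838341 to 4867768, minus strand) encodes TIP47, a stable cytosolic perilipin that moves onto nascent droplets and was first described as a carrier protein for mannose 6-phosphate receptors. Its level was 200.7, 207, 214 and 209.8 CPM in the control libraries and 235, 232, 229.9 and 227 CPM in the ELAPOR1 libraries. All ELAPOR1 libraries were above all control libraries. PLIN3 rose by 11.01%, from 208 ± 5.75 to 231 ± 3.25 CPM (log2 fold change 0.15, SE 0.0312, 95% interval 0.09 to 0.21, edgeR adjusted p = 1.6e-04). The log2 ratio of PLIN2 to PLIN3 counts was -7.34 ± 0.197 in control and -7.10 ± 0.368 in ELAPOR1 libraries, and the groups overlapped.

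Lipolysis begins with PNPLA2 (ENSG00000177666.17, chromosome 11, 818902 to 825573, plus strand), which encodes adipose triglyceride lipase, the enzyme that removes the first acyl chain and sets the rate of the pathway. Its level was 104, 105, 104 and 113 CPM in the control libraries and 73.8, 83.8, 76.5 and 78.6 CPM in the ELAPOR1 libraries. Control replicate 4 stood above the other 3 control libraries, and the groups were far apart. PNPLA2 fell by 26.7%, from 107 ± 4.15 to 78.2 ± 4.21 CPM (log2 fold change -0.45, SE 0.0426, 95% interval -0.53 to -0.36, edgeR adjusted p = 1.3e-10). Without control replicate 4 the log2 fold change was -0.42.

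LIPE (ENSG00000079435.10, chromosome 19, 42401507 to 42427426, minus strand) encodes hormone-sensitive lipase, which hydrolyses diacylglycerol and cholesteryl esters and is switched on by protein kinase A. It was also lowly expressed, with 45, 71, 59 and 60 counts in control and 82, 45, 48 and 67 in ELAPOR1 libraries. The levels of 2.49, 4.19, 3.54 and 3.66 CPM overlapped with those of 5.03, 2.99, 3.46 and 3.86 CPM. The lowest value came from control replicate 1 and the highest from ELAPOR1 replicate 1. The log2 fold change was 0.15, with a 95% interval from -0.23 to 0.54 (edgeR, SE 0.189, adjusted p = 0.541), and it was -0.0056 without ELAPOR1 replicate 1.

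MGLL (ENSG00000074416.14, chromosome 3, 127689062 to 128052190, minus strand) encodes monoacylglycerol lipase, which frees the last acyl chain and also degrades the endocannabinoid 2-arachidonoylglycerol. Its level was 329.7, 338, 327 and 329.9 CPM in the control libraries and 265, 260.5, 257 and 253 CPM in the ELAPOR1 libraries. The spread within a group was small beside the distance between the groups. MGLL fell by 21.8%, from 331 ± 4.56 to 259 ± 4.87 CPM (log2 fold change -0.36, SE 0.0292, 95% interval -0.41 to -0.30, edgeR adjusted p = 4.4e-12). The protein-coding genes SEC61A1 and KBTBD12 overlap MGLL on the opposite strand and moved in different directions. The former, at 333 and 358 CPM, was higher (log2 fold change 0.10, edgeR adjusted p = 0.00392), and the latter, with 27 to 70 counts per library, was lower (log2 fold change -0.60, edgeR adjusted p = 0.0219). The part of their reads in the MGLL values was not tested.

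PNPLA2 and MGLL, the lipases of the first and last chain, both fell, and the ratio between them overlapped between the groups. The log2 ratio of PNPLA2 to MGLL counts was -1.64 ± 0.0595 in control and -1.73 ± 0.0879 in ELAPOR1 libraries, a difference of -0.09. The log2 ratio of GPAM to AGPAT2 likewise overlapped, at -0.88 ± 0.178 and -0.79 ± 0.0349.

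**Figure D3:**
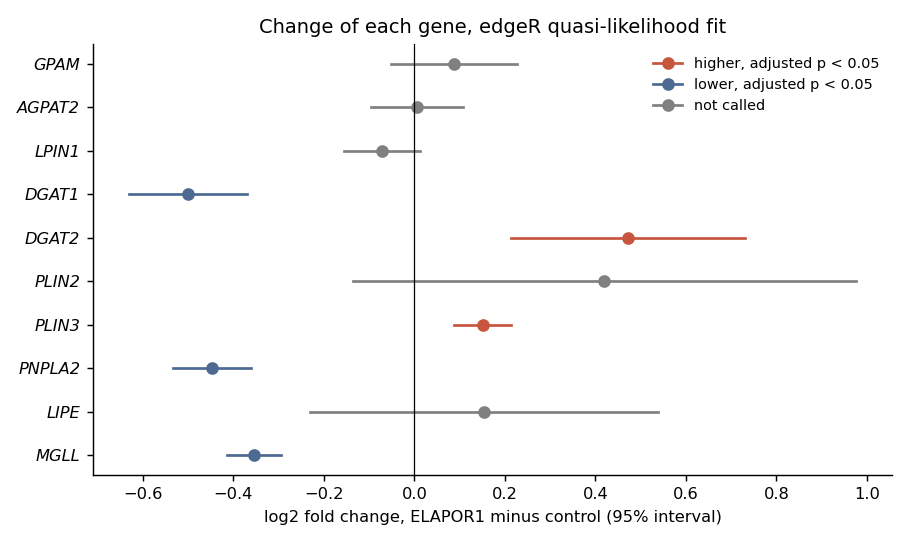
Log2 fold change of each gene (points, ELAPOR1 minus control) with its 95% interval (lines) from the edgeR fit, coloured by whether the gene was called at an adjusted p under 0.05. DGAT1, PNPLA2 and MGLL lie below 0, DGAT2 and PLIN3 lie above 0, and the widest interval, from -0.14 to 0.98, belongs to PLIN2.

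Per kilobase of the longest annotated transcript, and scaled to 1000000 over all genes, PLIN3 had the highest level in control libraries (237 ± 4.93), followed by MGLL (178 ± 2.97), PNPLA2 (104 ± 3.34) and AGPAT2 (83.0 ± 2.67). LPIN1 (39.4 ± 2.22), DGAT1 (25.5 ± 1.08) and GPAM (10.8 ± 1.01) were intermediate on this length-scaled measure. DGAT2 (2.65 ± 0.394), LIPE (2.42 ± 0.468) and PLIN2 (1.75 ± 0.244) were lowest, and the ranges of neighbours among these 3 overlapped over the 4 control libraries, although LIPE was above PLIN2 within each of them. In ELAPOR1 libraries the length-scaled order was kept except that AGPAT2 (85.9 ± 2.05) stood above PNPLA2 (78.7 ± 4.41), with overlapping values. DGAT2 (3.79 ± 0.308) was there above PLIN2 (2.40 ± 0.631). The order depends on the transcript used. With the median transcript length, MGLL was highest in control libraries (294), above PLIN3 (128), LPIN1 (126) and PNPLA2 (104), and PLIN2 remained lowest (1.53).

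**Figure D4:**
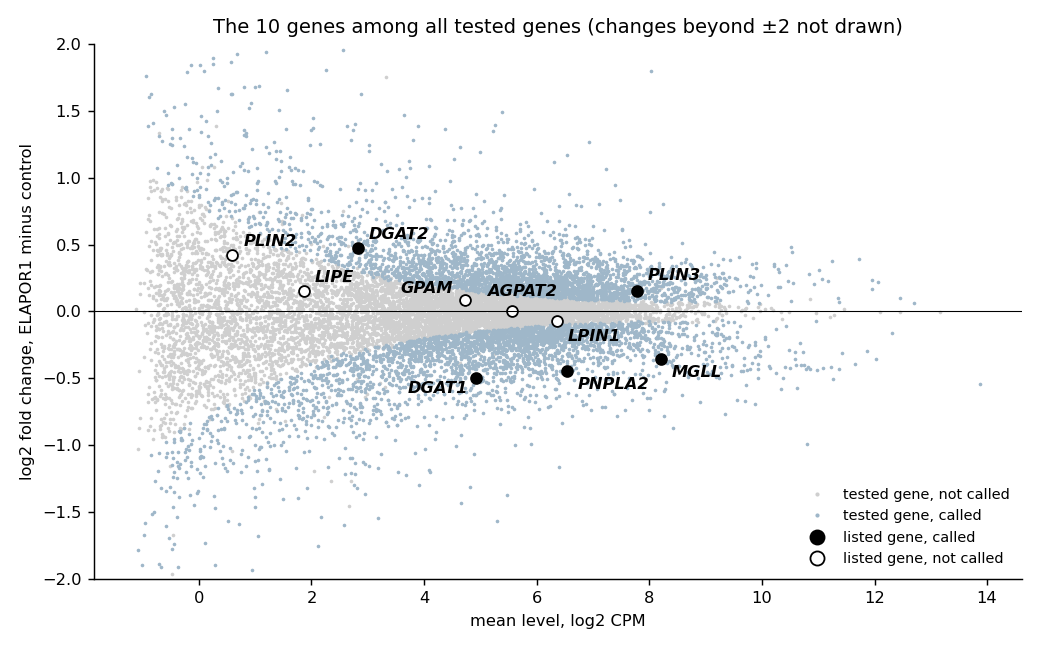
Tested genes by mean level (log2 CPM, horizontal) and log2 fold change (ELAPOR1 minus control, vertical), called genes in blue and others in grey. The 10 named genes are in black (filled where called). Genes with changes beyond the vertical axis, such as ELAPOR1, are not drawn. MGLL and PLIN3 lie among highly expressed genes, where small changes were called, and PLIN2 among lowly expressed ones, where its 0.42 was not.

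The promoters of 7 of the 10 genes were in the RefSeq promoter table (GRCh38.p14), as 10 promoters with alternative starts. DGAT1, DGAT2 and MGLL are named here without one. The 250 bases before each start were searched on both strands for the sterol regulatory element TCACNCCAC, the E-box CACGTG and the nuclear receptor core motif AGGTCA, the letters linked to SREBP factors, to E-box binding factors such as ChREBP and MYC, and to PPAR and related receptors. The sterol regulatory element was in 0.883% of 35116 promoters and, among these 10, in that of PNPLA2. The E-box was in 6.34% of all promoters and in that of PLIN2, and the nuclear receptor motif in 12.1% and in that of PNPLA2. A pair of such receptor motifs in the same direction with 1 base between them was in 0.0171% of all promoters and in none of the 10. The 2 promoters with a match are shown 5′ to 3′ on the strand of the gene, with the matches in capitals, because they belong to the lipase that fell and to the coat protein that was not called. The PNPLA2 window is chr11:818664-818913 (plus strand), and its nuclear receptor match starts 239 and its sterol regulatory element match 153 bases before the start, both written on the other strand, as TGACCT and GTGGGGTGA. The PLIN2 window is chr9:19127493-19127742 (minus strand), with the E-box 69 bases before the start. It lies inside the extent of PLIN2 given above, which is GENCODE's, so the RefSeq start used here is not the GENCODE end of the gene.
PNPLA2: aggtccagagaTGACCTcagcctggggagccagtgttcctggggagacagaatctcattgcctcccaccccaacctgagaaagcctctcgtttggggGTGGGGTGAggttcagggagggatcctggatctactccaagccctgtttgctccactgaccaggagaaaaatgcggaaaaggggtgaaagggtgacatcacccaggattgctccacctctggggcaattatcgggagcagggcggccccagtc
PLIN2: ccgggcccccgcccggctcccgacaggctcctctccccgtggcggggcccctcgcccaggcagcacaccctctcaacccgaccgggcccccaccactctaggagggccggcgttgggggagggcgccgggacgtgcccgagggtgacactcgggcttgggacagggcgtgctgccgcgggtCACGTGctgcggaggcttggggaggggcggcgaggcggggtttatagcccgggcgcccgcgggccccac
The matches describe letters only, and binding of a factor was not measured.

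Around the 10 genes, 6 wider lists of the pathway held 75 genes, of which 52 were tested, 14 were higher and 15 lower, with a median log2 fold change of 0.00. That is 29 of 52 called, beside 44.7% of all tested genes called (22.6% higher and 22.1% lower), and the same shares apply to each of the 6 lists. The lists were described by counts alone. In glycerolipid assembly, the other enzymes of the same route, 10 of 15 genes were tested, and 4 were higher and 4 lower, or 8 of 10 called beside 44.7% of all tested genes (median log2 fold change -0.06). GPD1L, a glycerol 3-phosphate dehydrogenase relative, rose from 5.41 ± 0.665 to 8.30 ± 0.554 CPM (log2 fold change 0.62, edgeR adjusted p = 1.1e-04). AGPAT5, a paralog of AGPAT2, fell from 264 ± 1.08 to 209 ± 5.81 CPM (log2 fold change -0.34, edgeR adjusted p = 3.4e-11), and LPIN2, a paralog of LPIN1, fell from 94.0 ± 3.13 to 77.6 ± 3.43 CPM (log2 fold change -0.28, edgeR adjusted p = 1.5e-06). The paralogs were not all called in the same direction. AGPAT1 (log2 fold change -0.11, edgeR adjusted p = 0.0215) and AGPAT4 (-0.45, adjusted p = 0.00814) were also lower, AGPAT3 was higher (0.10, adjusted p = 0.0359), and LPIN3 was not called (-0.02, adjusted p = 0.844). The groups overlapped in AGPAT3, AGPAT4 and LPIN3 and did not overlap in AGPAT1. AGPAT1, AGPAT3, AGPAT4 and LPIN3 are named after their values were seen, and the difference between paralogs was not tested. The monoacylglycerol acyltransferase genes MOGAT1 and MOGAT2 had 0 counts in all 8 libraries, which allows up to 3 counts in each, or 0.165 to 0.218 per 1000000 counts. MOGAT3, with 0 to 4 counts, was not tested either. Without control replicate 2 the calls in this list were 4 instead of 8, and 5 without control replicate 4 or ELAPOR1 replicate 3.

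In the list of droplet coat and growth, 8 of 16 genes were tested, with 1 higher and 1 lower (median log2 fold change 0.07). AUP1, a droplet protein that also acts in protein degradation at the endoplasmic reticulum, rose from 129 ± 4.83 to 142 ± 4.33 CPM (log2 fold change 0.15, edgeR adjusted p = 0.00131). HSD17B11, a droplet-associated dehydrogenase, fell from 47.3 ± 1.44 to 38.0 ± 0.404 CPM (log2 fold change -0.32, edgeR adjusted p = 4.9e-06). HTRA2 overlaps AUP1 on the opposite strand and AC108516.2 overlaps HSD17B11 on the same strand, and the part of their reads was not tested. The other perilipin genes, PLIN1, PLIN4 and PLIN5, which are typical of fat and oxidative tissues, had at most 8, 7 and 5 counts in any library and were not tested, so of the perilipins only PLIN2 and PLIN3 had enough counts to be tested.

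Among partners of lipolysis and other lipases, 9 of 13 were tested, and 3 were higher and 1 lower (median log2 fold change 0.09). ABHD5, the coactivator of the PNPLA2 lipase, named here for that role, had 29.5 ± 1.75 and 29.8 ± 2.09 CPM, with a log2 fold change of 0.01 and a 95% interval from -0.12 to 0.15 (edgeR, adjusted p = 0.89). G0S2, its inhibitor, had 18, 25, 19 and 25 counts in control and 39, 38, 37 and 24 in ELAPOR1 libraries and is named here after its values were seen. It rose from 1.28 ± 0.256 to 2.24 ± 0.583 CPM with overlapping groups (edgeR, log2 fold change 0.79 with SE 0.269, adjusted p = 0.0157), and the call was lost without ELAPOR1 replicate 3 (adjusted p = 0.0573). PNPLA3, a paralog of PNPLA2 that acts on droplets of liver cells, rose from 2.52 ± 0.517 to 3.76 ± 0.711 CPM (log2 fold change 0.57, edgeR adjusted p = 0.0185), and that call was lost without control replicate 3 (adjusted p = 0.0886) or ELAPOR1 replicate 3 (adjusted p = 0.095). The protein-coding gene SAMM50 overlaps PNPLA3 on the same strand, and the part of its reads in the PNPLA3 values was not tested. LIPA, the acid lipase of lysosomes, fell from 238 ± 5.78 to 189.6 ± 3.64 CPM (log2 fold change -0.33, edgeR adjusted p = 1.5e-10), and the IFIT genes overlap it on the opposite strand. FABP5, a fatty acid carrier, rose from 32.8 ± 1.12 to 39.1 ± 0.698 CPM (log2 fold change 0.25, edgeR adjusted p = 3.4e-04).

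Phosphatidate and diacylglycerol, the substrates of LPIN1 and of DGAT1 and DGAT2, can also enter phospholipids. In the list of these competing fates 13 of 14 genes were tested, and 3 were higher and 4 lower (median log2 fold change -0.01). PCYT1A, which sets the rate of phosphatidylcholine synthesis, rose from 80.0 ± 1.80 to 100.5 ± 5.51 CPM (log2 fold change 0.33, edgeR adjusted p = 6.2e-08). The protein-coding genes AC069257.3, on the same strand, and SLC51A, on the opposite strand, overlap PCYT1A, and the part of their reads in its values was not tested. Of the diacylglycerol kinase genes, DGKA fell from 96.8 ± 3.57 to 79.1 ± 0.81 CPM (log2 fold change -0.29, edgeR adjusted p = 2.8e-07), and PYM1 overlaps it on the opposite strand. DGKZ rose from 78.6 ± 2.28 to 91.7 ± 3.80 CPM (log2 fold change 0.22, edgeR adjusted p = 3.6e-05). DGKD (log2 fold change 0.02, edgeR adjusted p = 0.748), DGKE (-0.11, adjusted p = 0.247), DGKH (-0.02, adjusted p = 0.821) and DGKQ (0.14, adjusted p = 0.226) were not called. Those not called are named here after their values were seen. For sterol esters and lipoprotein export, 2 of 5 genes were tested and both were higher (median log2 fold change 0.13). SOAT1, which esterifies cholesterol for droplets, was at 120.0 ± 4.27 and 134 ± 3.53 CPM (log2 fold change 0.16, edgeR adjusted p = 4.7e-04). NCEH1, named after its values were seen, was at 163 ± 8.03 and 176 ± 5.97 CPM with overlapping groups (log2 fold change 0.11, edgeR adjusted p = 0.0144). The number called in this list was 1 without control replicate 3 or without ELAPOR1 replicate 4. The lipoprotein genes MTTP and APOB had at most 2 counts in a library and were not tested, and they too are named after their values were seen.

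The list of PPAR and ChREBP factors and targets, among whose known targets in other tissues are PLIN2 and PNPLA2, had 10 of 12 genes tested, with 1 higher, beside 22.6% of all tested genes, and 5 lower, beside 22.1% (median log2 fold change -0.16). PPARG, the nuclear receptor that drives fat storage, fell from 11.1 ± 0.802 to 6.65 ± 0.859 CPM (edgeR, log2 fold change -0.74 with SE 0.110, adjusted p = 1.1e-06). MLXIPL, which encodes ChREBP, fell from 2.90 ± 0.386 to 1.71 ± 0.429 CPM (log2 fold change -0.74, edgeR adjusted p = 0.0073). PDK4, a PPAR target that restrains pyruvate oxidation, fell from 3.13 ± 0.241 to 2.03 ± 0.477 CPM (log2 fold change -0.62, edgeR adjusted p = 0.0144), a call lost without ELAPOR1 replicate 3 (adjusted p = 0.0563). PPARA, named after its values were seen, fell from 12.2 ± 0.927 to 8.46 ± 1.07 CPM (log2 fold change -0.53, edgeR adjusted p = 7e-05). Also named after their values were seen, the receptor gene PPARD was lower (log2 fold change -0.23, edgeR adjusted p = 2e-05), and TXNIP, a ChREBP target, was the 1 gene that was higher (log2 fold change 0.29, edgeR adjusted p = 1.7e-05).

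**Figure D5:**
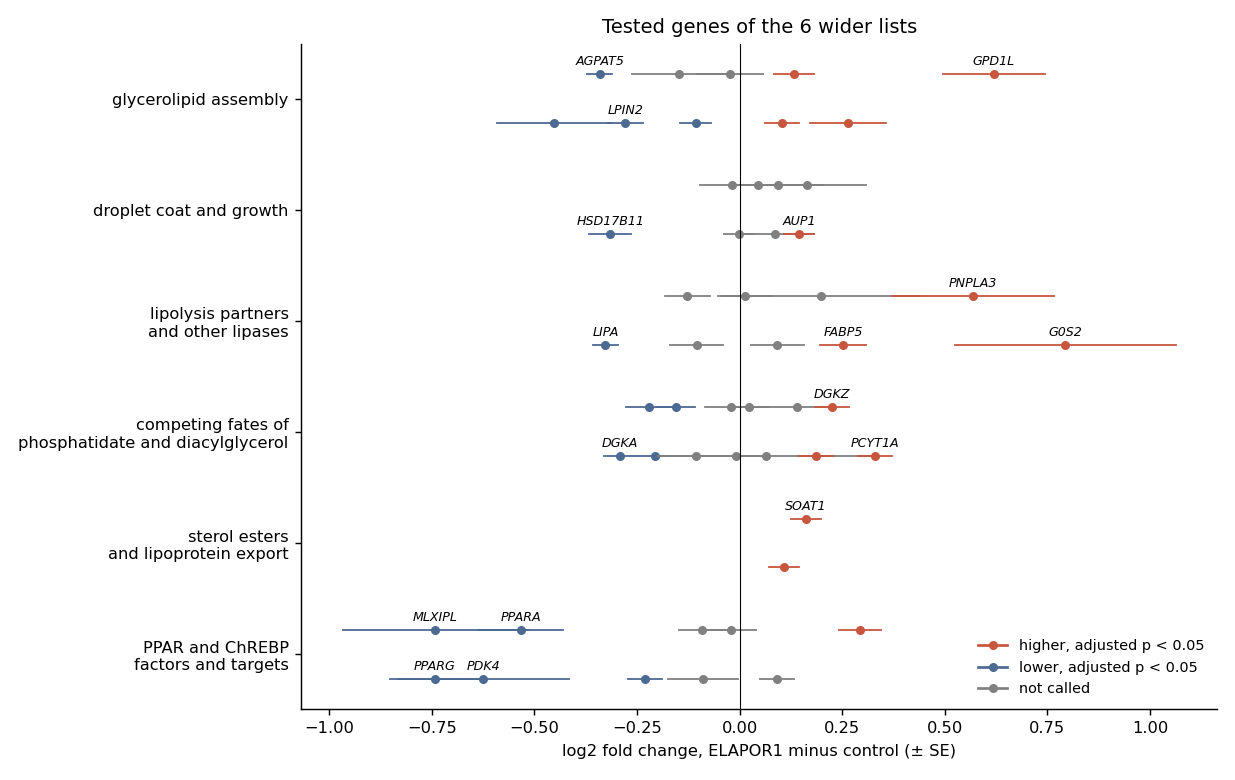
Log2 fold change (ELAPOR1 minus control, ± SE) of the tested genes of the 6 wider lists, coloured by call. Each list is on 2 rows for legibility. Labels mark G0S2, PPARA and the called genes of each list that were named by the size of their change. The PPAR and ChREBP list has 5 lower and 1 higher gene, and glycerolipid assembly has 4 of each.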

How the data were processed

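The authors deposited 1 table of expected counts per gene for the 8 libraries, unscaled, with 15% of nonzero values not whole. The submitters' processing notes name cutadapt, STAR, RSEM, DESeq2 and hg38, and annotation release, versions and use of strand are not given in the sources used here. RNA was extracted with TRIzol and sequenced on an Illumina NextSeq, per the labels' protocols. Genes were matched to GENCODE release 29 (GRCh38), which held 58597 of 58870 identifiers without version and gave positions, overlaps and lengths.

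The expected counts were rounded. The test was that of edgeR 4.0.16 (R 4.3.3): filterByExpr, TMM scaling and the robust quasi-likelihood test, two-sided, with no covariate and Benjamini-Hochberg adjustment over 13860 genes. Calls are at adjusted p under 0.05. CPM is counts per 1000000 with TMM scaling. The standard error is the log2 fold change divided by the square root of F. The script was tested on simulated counts, with 1 common spread for every gene and 200 of 13860 genes changed, by 1.5-fold or more. That test does not cover smaller changes, or a share of changed genes as large as the share called here. Alternatives included DESeq2 1.42.0, limma 3.58.1 (voom), other scalings and filters, and leaving out each library.

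Members, wider lists and marker lists were chosen with earlier results of these data known. Named genes were ELAPOR1, the 10 genes, and up to 3 called genes per wider list with the largest change among those averaging 1 CPM or more whose groups did not overlap, plus untested paralogs. Markers, genes overlapping or beside a member and some genes overlapping another named gene are also named, and others outside this rule are marked where they appear. Intervals for fold changes cover the spread between libraries, and floors of 3 counts cover counting error only. Promoters are RefSeq's.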

Additional observations from a re-analysis of the deposited data

Results flagged for a closer look

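In 1 group a library stood apart from the other 3. The PNPLA2 level of control replicate 4 was 112.8 CPM, while the other control libraries had 104.04 to 105.15 CPM, and the gap was 0.873 of the group's whole range, above Dixon's 95% critical value for 4 samples. Chance alone flags about 1 in 20 groups, which is 3.1 of the 62 groups examined. PNPLA2 stayed lower with ELAPOR1 without this library (log2 fold change -0.42, edgeR adjusted p = 1.8e-11).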

How the results depend on the processing

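The 5 called genes of the 10 kept their direction and call under every other scaling, filter and tool run and without each library, except in the test against a 1.5-fold change. Their log2 fold changes ranged from -0.54 to -0.47 for DGAT1, 0.39 to 0.58 for DGAT2 (adjusted p 4.4e-04 to 0.017), 0.13 to 0.20 for PLIN3, -0.48 to -0.38 for PNPLA2 and -0.38 to -0.33 for MGLL. Tested against a 1.5-fold change, edgeR called 215 genes, 0 of the 10, and 0 in each of the 6 wider lists (glycerolipid assembly, droplet coat, lipolysis partners, competing fates, sterol esters, PPAR and ChREBP). At an adjusted p under 0.01, 4 genes were called in glycerolipid assembly, 2 among lipolysis partners and 1 for sterol esters. With GC content and length trends removed, 7 of the 10 were called in place of 5, with AGPAT2 (0.13) and LPIN1 (-0.13) added, and sterol esters had 1. Leaving out 1 library gave 4 to 8 in glycerolipid assembly and 1 to 2 for sterol esters. AGPAT2 turned, without being called, to -0.0032 with upper-quartile scaling and to values from -0.014 (without ELAPOR1 replicate 1) to -0.0012 (without control replicate 2), with -0.0038 and -0.010 without control replicates 1 and 3. Its highest value without a library was 0.029 (control replicate 4). LIPE turned to -0.0056 without ELAPOR1 replicate 1, and its highest was 0.26 without control replicate 2. Control and ELAPOR1 libraries share replicate numbers. The deviations of same-numbered libraries correlated at -0.121, 0.0273, 0.0313 and -0.107 over 10703 genes, and those of different-numbered libraries at -0.126 to 0.133. The labels do not say whether same-numbered libraries were made together, and these correlations cannot decide it. With the replicate block 5926 genes were called in place of 6193, and 5 of the 10. ELAPOR1 had no value where 10 counts were required in every library or its row was left out. The cause of these changes was not tested. Precision differed with the counts: PLIN2, with 17 to 38 counts in a library, had an SE of 0.274, and MGLL, with 3569 to 5948, one of 0.0292.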

Other observations

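PLIN2 had a mean level below that of most tested genes, with 10.5% of the 13860 lower in CPM, while MGLL had 96.2% and PLIN3 94.2% lower. The genes next to PLIN2 on chromosome 9, looked up after its level was seen, were HAUS6 on one side, at 78.8 ± 3.05 CPM in control and 78.7 ± 1.49 CPM in ELAPOR1 libraries, and DENND4C on the other, at 50.8 ± 3.14 and 57.5 ± 0.989 CPM (SD, n = 4 each). PLIN2 had 1.297 ± 0.195 and 1.73 ± 0.459 CPM in the same libraries. HAUS6 was not called (log2 fold change -0.0018, edgeR adjusted p = 0.978), DENND4C was called higher (0.18, edgeR adjusted p = 0.00361), and RPS6, the ribosomal protein gene beyond it, was called lower (-0.40, edgeR adjusted p = 1.5e-14).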
